A study of Homo sapiens with 18 samples.

Results

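CUX2, SNCAIP, FAXDC2, CREBRF and LETMD1 are 5 of the 58870 genes in a table of expected counts from NCI-H295R, an established human line of adrenocortical carcinoma that makes steroids. They were selected on their rise with a PI3K inhibitor in these same libraries, and all 5 were among the 15787 genes with enough counts to be tested. Cells were harvested at 48 h, untreated or after STA9090, PIK75, BGT226, STA9090+PIK75 or STA9090+BGT226 at a stated 20 nM, in 3 biological replicates per group. STA9090 (ganetespib) inhibits the chaperone HSP90, PIK75 inhibits PI3K, and BGT226 inhibits PI3K and mTOR. All groups are cultures of that 1 line. Neither the vehicle nor how the stated dose applies to a pair of agents is known here.

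PI3K at the plasma membrane activates the kinase AKT, which holds FOXO transcription factors out of the nucleus, and mTOR, which promotes growth when nutrients are plentiful. When this signalling is blocked, FOXO factors can enter the nucleus and transcribe genes of growth arrest and nutrient stress. HSP90 folds many signalling proteins, AKT among them.

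CUX2 encodes a homeobox and CUT domain transcription factor best known from upper-layer neurons of the cerebral cortex. SNCAIP encodes synphilin-1, an ankyrin repeat protein found in neurons that is a substrate of ubiquitin ligases. FAXDC2 encodes a member of the fatty acid hydroxylase superfamily, to which sterol-modifying enzymes also belong. CREBRF is a regulator of the CREB3 transcription factor and the counterpart of a fly factor that acts under TORC1. LETMD1 encodes a mitochondrial protein with a LETM1-like domain.

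The 5 are protein-coding genes of hg38, placed here by GENCODE 29. CUX2 (ENSG00000111249.14) lies on chromosome 12 at 111034024 to 111350554, plus strand. SNCAIP (ENSG00000064692.19) lies on chromosome 5 at 122311354 to 122464219, plus strand. FAXDC2 (ENSG00000170271.11) lies on chromosome 5 at 154818491 to 154859252, minus strand. It overlaps CNOT8, a subunit gene of the deadenylase complex, on the opposite strand. CREBRF (ENSG00000164463.12) lies on chromosome 5 at 173056352 to 173139284, plus strand. LETMD1 (ENSG00000050426.16) lies on chromosome 12 at 51047962 to 51060424, plus strand. The values are sums over all transcripts and exons of a gene.

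Promoters were read because the genes respond together in part, and the E-box matches of the pair that rose with BGT226 and not with PIK75 are shown. RefSeq (GRCh38.p14) gave 8 windows for the 5 genes, each from 250 bases before a start to 50 after it. Both strands were searched for the FOXO motif TGTTTAC, the cAMP response element TGACGTCA, the E-box CACGTG, the sterol element TCACNCCAC and the ATF4 element TGATGNAAT. In all 35116 windows these were held by 3.42%, 1.85%, 7.26%, 1.13% and 0.991%. FAXDC2 had 1 E-box, at -74 to -69 relative to the start. Its window, 154850554 to 154850853, lies inside the gene as placed above, and an annotated FAXDC2 exon overlaps the part before the start. CREBRF had 2 E-boxes, at -129 to -124 and at -14 to -9. At least 2 E-boxes were held by 0.664% of all windows. The other 6 windows, of CUX2, SNCAIP and LETMD1, held none of the 5 motifs. Capitals mark the E-boxes, and both sequences run 5′ to 3′ on the gene's strand.
FAXDC2, chr5:154850660-154850689, minus strand: aacttttttcatCACGTGcctggtccgagc
CREBRF, chr5:173056102-173056351, plus strand: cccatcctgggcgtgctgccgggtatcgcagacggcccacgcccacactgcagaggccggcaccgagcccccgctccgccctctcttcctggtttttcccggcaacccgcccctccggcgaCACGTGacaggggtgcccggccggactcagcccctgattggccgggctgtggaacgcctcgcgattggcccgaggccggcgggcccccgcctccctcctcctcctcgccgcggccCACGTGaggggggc
A match describes these letters and is no evidence of a bound site.

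Library totals ran from 10.24 to 21.13 M counts, and values below are CPM (counts scaled to a common library total) scaled by TMM factors of 0.9034 to 1.132. RNA polymerase III transcripts took 28.6% to 40.35% of a library and mitochondrial transcripts 4.79% to 10.9%. All 10 adrenocortical markers, STAR, CYP11A1 and CYP17A1 among them, were measured, with a summed level of 6950 to 7518 CPM in untreated libraries. Of 12 markers of fibroblasts, endothelium, leukocytes and epithelium, 4 had enough counts, and CDH5, CD3E and KRT19 were at 0 in all 18 libraries. In bulk RNA fewer cells of a type and less RNA per cell cannot be told apart.

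Per exon length, untreated cells held the other members at similar low levels and LETMD1 well above them. The levels were 0.324 ± 0.0561 RPKM for CUX2, 0.383 ± 0.0443 for SNCAIP, 0.452 ± 0.081 for FAXDC2, 0.456 ± 0.071 for CREBRF and 3.05 ± 0.37 for LETMD1 (SD, n = 3). The 5 did not respond as one group. CUX2 was high with both inhibitors, SNCAIP with PIK75 and not with BGT226, FAXDC2 and CREBRF with BGT226 and not with PIK75, and LETMD1 with BGT226 and less with PIK75. These levels include the ones that chose the genes and are given as a description.

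**Figure D1:**
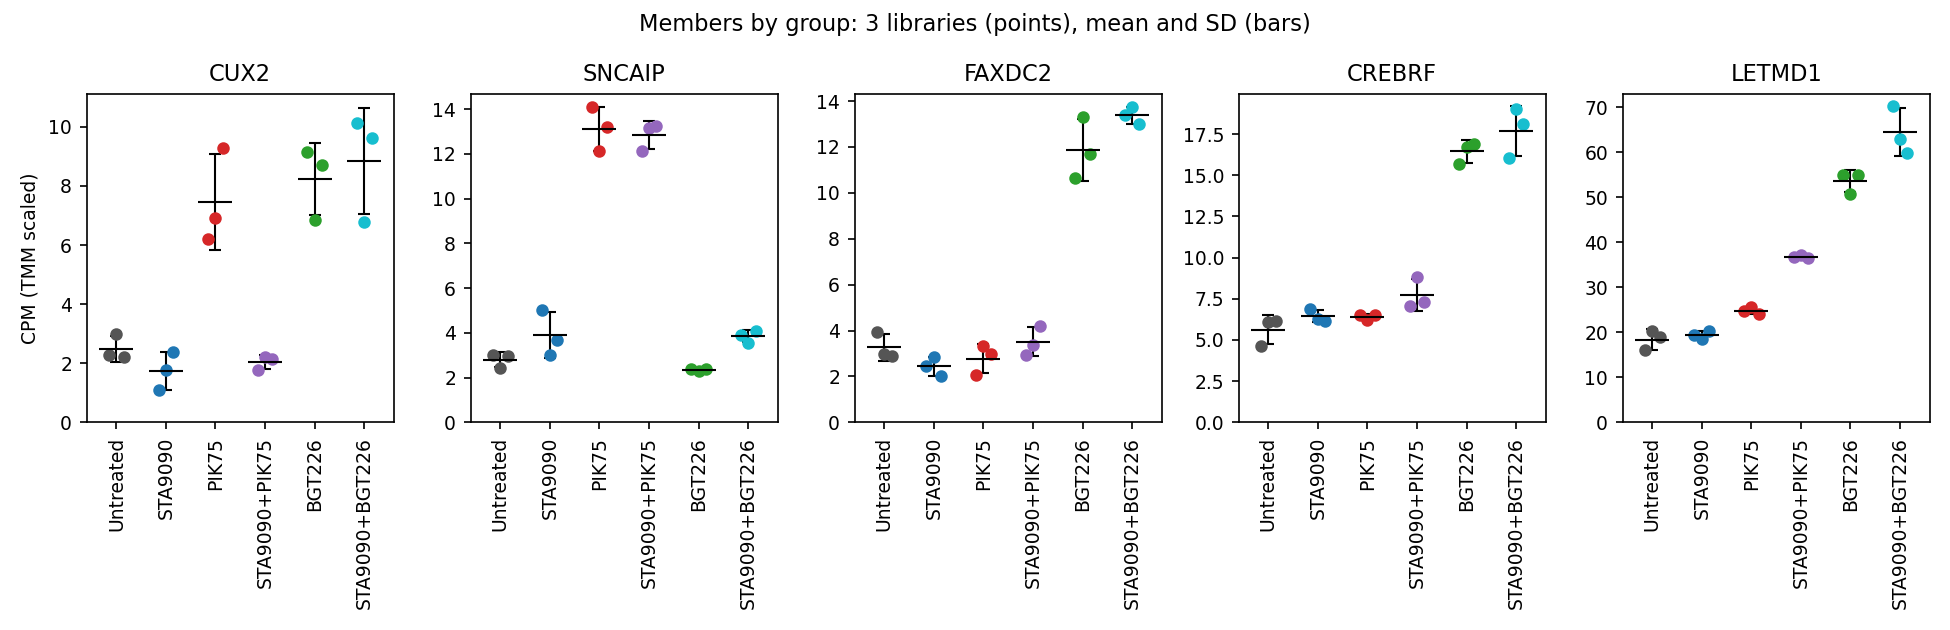
Level of each gene in CPM (vertical axis, from 0) in the 6 treatment groups (horizontal axis); points are single libraries and bars are mean ± SD of 3. CUX2 is low with STA9090+PIK75 (2.05 CPM) and high with STA9090+BGT226 (8.85 CPM), SNCAIP is high in both groups with PIK75, and FAXDC2, CREBRF and LETMD1 are highest in both groups with BGT226.

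CUX2 in replicates 1, 2 and 3 stood at 2.27, 2.98 and 2.199 CPM in untreated cells and at 1.08, 1.77 and 2.37 CPM with STA9090. With PIK75 it stood at 6.19, 6.93 and 9.30 CPM, and with BGT226 at 9.17, 6.86 and 8.72 CPM. With STA9090+PIK75 it stood at 1.79, 2.21 and 2.15 CPM, and with STA9090+BGT226 at 10.1, 6.79 and 9.63 CPM. Every library with PIK75 alone, BGT226 alone or STA9090+BGT226 lay above every library of the other groups, while the untreated, STA9090 and STA9090+PIK75 libraries overlapped. PIK75 and BGT226 libraries overlapped as well. The rise that chose the gene was 1.57 ± 0.227 (SE) on the log2 scale with PIK75 and 1.72 ± 0.222 with BGT226, or 2.97-fold and 3.29-fold.

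STA9090 changed CUX2 with one inhibitor and not detectably with the other. STA9090+PIK75 against PIK75 gave a log2 fold change of -1.85 (SE 0.236, 95% interval -2.34 to -1.36, adjusted p = 8.9e-06), a level 3.6-fold lower with no overlap. STA9090+BGT226 against BGT226 gave 0.10 (interval -0.29 to 0.49, adjusted p = 0.841). Both contrasts, and their difference, share the single-inhibitor libraries that chose the genes, so p is not free of that choice. The difference between those 2 steps, a comparison added after seeing the data, was -1.95 (SE 0.303, interval -2.58 to -1.32, adjusted p = 0.000329). STA9090 alone against untreated cells gave -0.57 (interval -1.16 to 0.023, adjusted p = 0.294).

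Against STA9090 alone, PIK75 did not raise CUX2 detectably, at 0.29 (interval -0.33 to 0.90, adjusted p = 0.472), whereas BGT226 raised it by 2.39 (SE 0.237, adjusted p = 1.61e-07), or 5.24-fold. The combinations differed from each other by -2.10 (SE 0.23, adjusted p = 3.62e-07), STA9090+PIK75 being lower. Relative to untreated cells the combination with PIK75 stood at -0.28 ± 0.275 (SE) and that with BGT226 at 1.82 ± 0.221.

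Other marker genes moved with this fall, in a contrast where 11.3% of all genes were higher and 14% lower. Of the 7 neuronal markers measured of 10, 4 were lower with STA9090+PIK75 than with PIK75, at a median of -1.01, and their summed level was 36 to 45.7 CPM against 70 to 82.1 CPM. The sum was 65.5 to 70.3 CPM in untreated cells, 55.5 to 64.1 with STA9090, 37.3 to 38.1 with BGT226 and 31.9 to 36.4 with STA9090+BGT226. The sum was carried by the neurofilament gene NEFL and the tubulin gene TUBB3, at 41.3 ± 1.184 and 18.5 ± 1.69 CPM in untreated cells (SD, n = 3), with SNAP25, SLC17A7, GAD1, NEFM and SYT1 at 2.15 CPM or less. NEFL (-1.15), SNAP25 (-1.34), GAD1 (-1.01) and NEFM (-2.02) were the 4 that were lower. RBFOX3, MAP2 and STMN2 had too few counts to be tested. Of the adrenocortical markers 8 of 10 were lower in the same contrast (14% of all genes), at a median of -0.46. The sum of all 10 was 4120 to 4573 CPM with STA9090+PIK75 against 5637 to 6623 CPM with PIK75. That sum was 5741 to 6705 CPM with STA9090, 9451 to 9508 with BGT226 and 8878 to 9193 with STA9090+BGT226. IGF2 held most of it, at 4956 ± 407.6 CPM in untreated cells (SD, n = 3). With BGT226 against untreated cells IGF2 rose (0.58, adjusted p = 7.69e-05), while STAR (-0.73), CYP11A1 (-0.49) and CYP17A1 (-1.34) fell. Of the 10 markers 4 were higher and 3 lower there (12.8% and 15.7% of all genes), at a median of -0.044. With BGT226, where CUX2 was high, the neuronal markers NEFL (-0.86) and TUBB3 (-1.16) fell, and the others measured did not pass. Of those, SYT1 (0.80, adjusted p = 0.124) and GAD1 (0.17, adjusted p = 0.737) stood above 0. SNAP25 (-0.37, adjusted p = 0.41), SLC17A7 (-0.56, adjusted p = 0.139) and NEFM (-0.82, adjusted p = 0.159) stood below 0. With PIK75, where CUX2 was high too, NEFL rose by 0.26 (adjusted p = 0.0251) and no other neuronal marker passed. Of the 4 measured markers of other cell types, the collagen gene COL1A1 fell (-2.87, adjusted p = 2.04e-07) and CD14 (2.06, adjusted p = 0.00172) and the keratin gene KRT18 (1.23, adjusted p = 0.0105) rose with STA9090+PIK75 against PIK75. Summed over all 12, these markers stood at 6.03 to 6.16 CPM with STA9090+PIK75 and 6.46 to 10.7 CPM with PIK75. The part of these markers in the fall of CUX2 was not tested.

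SNCAIP in replicates 1, 2 and 3 stood at 3.03, 2.43 and 2.96 CPM in untreated cells and at 5.01, 2.996 and 3.69 CPM with STA9090. With PIK75 it stood at 14.1, 12.1 and 13.2 CPM, and with STA9090+PIK75 at 12.1, 13.2 and 13.25 CPM. With BGT226 it stood at 2.365, 2.312 and 2.365 CPM, and with STA9090+BGT226 at 3.91, 3.55 and 4.08 CPM. The 6 libraries that had PIK75 were all above the 12 that had not, and the PIK75 groups overlapped each other. BGT226 libraries were the lowest, just under the lowest untreated one. The log2 difference from untreated cells was 2.23 ± 0.153 (SE) with PIK75, a 4.69-fold rise, and -0.25 ± 0.189 with BGT226.

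STA9090 left SNCAIP with PIK75 within a narrow interval of its level without STA9090, at -0.030 (interval -0.29 to 0.23, adjusted p = 0.894). Against STA9090 alone the rise with STA9090+PIK75 was 1.70 (SE 0.145, adjusted p = 2.24e-08), or 3.25-fold, and STA9090+PIK75 exceeded STA9090+BGT226 by 1.74 (SE 0.144, adjusted p = 8.85e-09). BGT226 added to STA9090 gave -0.035 (interval -0.38 to 0.31, adjusted p = 0.885).

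With BGT226, STA9090 went with a higher SNCAIP level, 3.84 ± 0.272 against 2.35 ± 0.0305 CPM (SD, n = 3). The BGT226 libraries are among those that chose the genes. The log2 fold change was 0.71 (SE 0.177, interval 0.34 to 1.08, adjusted p = 0.0344) with no overlap, and the call ended with any 1 of the 6 libraries left out (0.64 to 0.76, adjusted p from 0.0669 to 0.135). The STA9090 step with PIK75 minus that with BGT226 was -0.74 (SE 0.218, adjusted p = 0.0351). This call ended in 10 of 12 fits without 1 library (-0.79 to -0.67), without a filter on low counts (adjusted p = 0.0585) and in DESeq2 (adjusted p = 0.0628). STA9090 alone gave 0.50 (interval 0.13 to 0.86, adjusted p = 0.124), and 0.24 without STA9090 replicate 1, the highest library of its group.

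FAXDC2 in replicates 1, 2 and 3 stood at 3.94, 2.98 and 2.88 CPM in untreated cells and at 2.48, 2.84 and 2.02 CPM with STA9090. With PIK75 it stood at 2.06, 3.31 and 2.96 CPM, and with STA9090+PIK75 at 2.95, 3.38 and 4.22 CPM. With BGT226 it stood at 10.6, 13.3 and 11.7 CPM, and with STA9090+BGT226 at 13.4, 13.7 and 13 CPM. The 6 libraries with BGT226 lay far above the other 12, whose groups mostly overlapped. FAXDC2 stood 1.86 ± 0.164 (SE) above untreated cells on the log2 scale with BGT226, or 3.64-fold, and at -0.24 ± 0.201 with PIK75.

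The level with BGT226 did not differ detectably when STA9090 was added, at 0.17 (interval -0.12 to 0.46, adjusted p = 0.593). Against STA9090 alone, FAXDC2 was 5.42-fold higher with STA9090+BGT226 (log2 fold change 2.44, SE 0.17, adjusted p = 1.78e-09). STA9090+PIK75 stood below STA9090+BGT226 (log2 fold change -1.92, SE 0.162, adjusted p = 1.16e-08). STA9090+PIK75 against STA9090 gave 0.52 (SE 0.202, adjusted p = 0.0466). That call ended in DESeq2 (adjusted p = 0.0737), without a filter on low counts (adjusted p = 0.0857), in a fit of only the 2 groups compared (adjusted p = 0.0935), and without STA9090 replicate 1 or 3 or STA9090+PIK75 replicate 2 or 3 (0.38 to 0.63 over all 6 libraries left out). STA9090 against untreated cells gave -0.41 (interval -0.83 to 0.017, adjusted p = 0.294), and STA9090+PIK75 against PIK75 gave 0.36 (interval -0.059 to 0.77, adjusted p = 0.204).

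CREBRF in replicates 1, 2 and 3 stood at 4.62, 6.09 and 6.17 CPM in untreated cells and at 6.85, 6.30 and 6.15 CPM with STA9090. With PIK75 it stood at 6.49, 6.22 and 6.51 CPM, and with STA9090+PIK75 at 7.05, 8.83 and 7.33 CPM. With BGT226 it stood at 15.7, 16.7 and 16.9 CPM, and with STA9090+BGT226 at 16.03, 19.0 and 18.1 CPM. The 6 libraries with BGT226 again lay well above the other 12, and the 2 BGT226 groups overlapped. STA9090+PIK75 lay just above PIK75 and STA9090 without overlap. CREBRF stood 1.55 ± 0.119 (SE) above untreated cells with BGT226 on the log2 scale, or 2.93-fold, and at 0.19 ± 0.133 with PIK75.

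STA9090 made no detectable difference to CREBRF by itself (0.20, interval -0.077 to 0.47, adjusted p = 0.449) or on top of BGT226 (0.10, interval -0.11 to 0.32, adjusted p = 0.67). STA9090+PIK75 stood above PIK75 by 0.28 (interval 0.0095 to 0.54, adjusted p = 0.122) and above STA9090 by 0.27 (adjusted p = 0.108), and neither passed. STA9090+BGT226 was 2.74-fold higher than STA9090 (log2 fold change 1.46, SE 0.116, adjusted p = 1.07e-08). It also exceeded STA9090+PIK75, which stood at -1.19 relative to it (SE 0.114, adjusted p = 5.9e-08).

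LETMD1 in replicates 1, 2 and 3 stood at 15.97, 20.35 and 18.9 CPM in untreated cells and at 19.4, 18.4 and 20.3 CPM with STA9090. With PIK75 it stood at 24.6, 25.7 and 24.1 CPM, and with STA9090+PIK75 at 36.8, 37.2 and 36.4 CPM. With BGT226 it stood at 55.0, 50.7 and 55.0 CPM, and with STA9090+BGT226 at 70.3, 63.0 and 59.9 CPM. The untreated and STA9090 libraries overlapped. From there the groups rose without overlap in the order PIK75, STA9090+PIK75, BGT226 and STA9090+BGT226. LETMD1 stood 0.43 ± 0.0882 (SE) above untreated cells with PIK75 on the log2 scale, or 1.35-fold, and 1.54 ± 0.084 with BGT226, or 2.91-fold.

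LETMD1 was the member that STA9090 raised with PIK75. STA9090+PIK75 exceeded PIK75 by 0.57 (SE 0.0836, interval 0.40 to 0.74, adjusted p = 4.31e-05), or 1.48-fold. This step and the one with BGT226 start from single-inhibitor libraries that chose the genes. With BGT226 the step was 0.26 (interval 0.10 to 0.42, adjusted p = 0.0689). It did not pass, although the groups did not overlap, and it passed in a fit of only the 2 groups compared (adjusted p = 0.0274). The 2 steps differed by 0.31 (SE 0.113, adjusted p = 0.0934). STA9090 alone gave 0.071 (interval -0.12 to 0.26, adjusted p = 0.735).

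Against STA9090, LETMD1 was 1.9-fold higher with STA9090+PIK75 (log2 fold change 0.93, SE 0.0853, adjusted p = 6.71e-08) and 3.33-fold higher with STA9090+BGT226 (1.73, SE 0.0831, adjusted p = 1.13e-11). The combination with PIK75 stood at -0.81 relative to that with BGT226 (SE 0.0786, adjusted p = 8.05e-08).

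**Figure D2:**
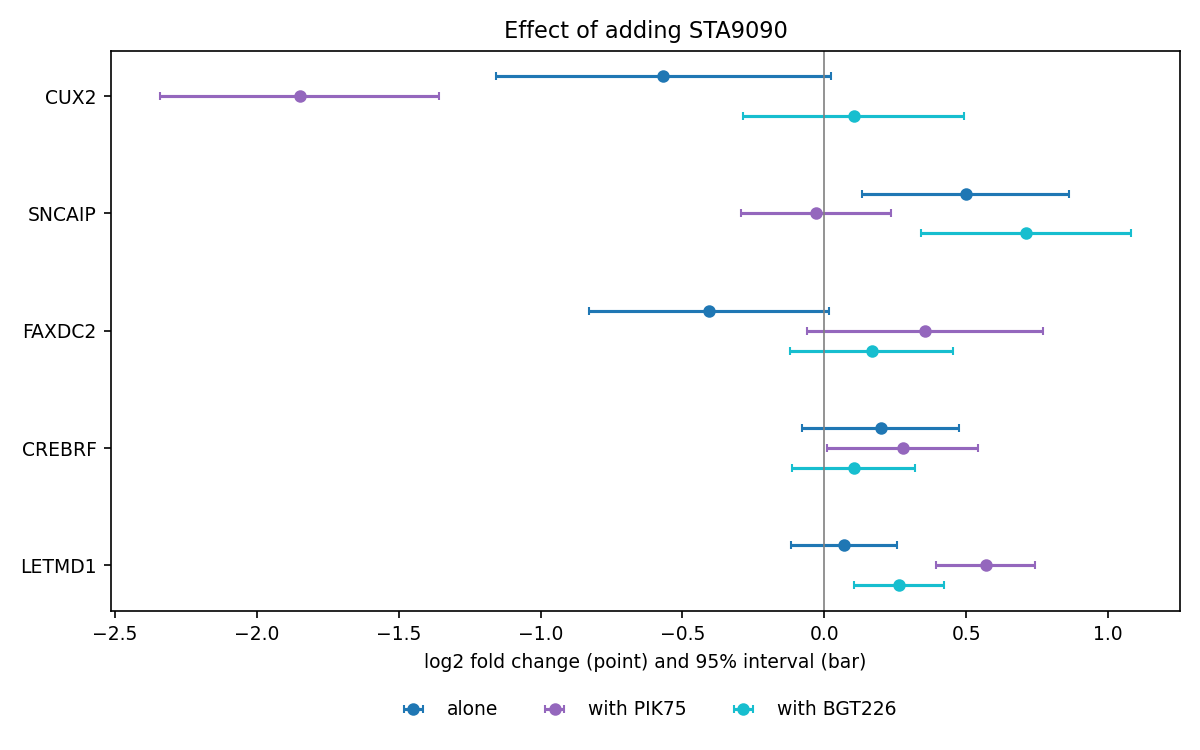
Log2 fold change (axis in log2 units) of the 5 genes on adding STA9090 to no inhibitor, to PIK75 and to BGT226; points are fitted values and bars their 95% intervals. CUX2 with PIK75 (-1.85) stands apart below 0, and LETMD1 with PIK75 (0.57) and SNCAIP with BGT226 (0.71) lie above it.

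Counted over the 5, STA9090 alone raised 0 and lowered 0 by edgeR's quasi-likelihood test, where 1.16% of all genes were higher and 1.68% lower. At an unadjusted p under 0.05, 1 member (SNCAIP) was higher and 0 lower, and DESeq2 called 0. Added to PIK75, STA9090 raised 1 member and lowered 1, where 11.3% of all genes were higher and 14% lower. Added to BGT226 it raised 1 and lowered 0, where 0.988% were higher and 1.7% lower. For the difference of these steps 0 members were higher and 2 lower, where 3.67% and 6.07% of all genes were. At an unadjusted p under 0.05, 1 member, LETMD1, was higher there, and DESeq2 called 0 higher and 1 lower.

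With STA9090 present, PIK75 raised 3 and lowered 0, where 17.7% of all genes were higher and 19.8% lower. DESeq2 called 2 of these 3 and not FAXDC2. BGT226 raised 4 and lowered 0, where 19.5% were higher and 20.9% lower. Between the combinations, PIK75 against BGT226, 1 member was higher and 4 were lower, where 20.9% and 22.4% of all genes were. The members were chosen on a rise with these same agents, so these counts are not independent of that choice and are a description. In each count of 0 lower members named here, 0 also had an unadjusted p under 0.05 and DESeq2 called 0. In the contrasts that chose the genes, 3 were higher and 0 lower with PIK75 (8.49% and 10.2% of all genes) and 4 were higher and 0 lower with BGT226 (12.8% and 15.7%), and nothing is read from these counts.

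**Figure D3:**
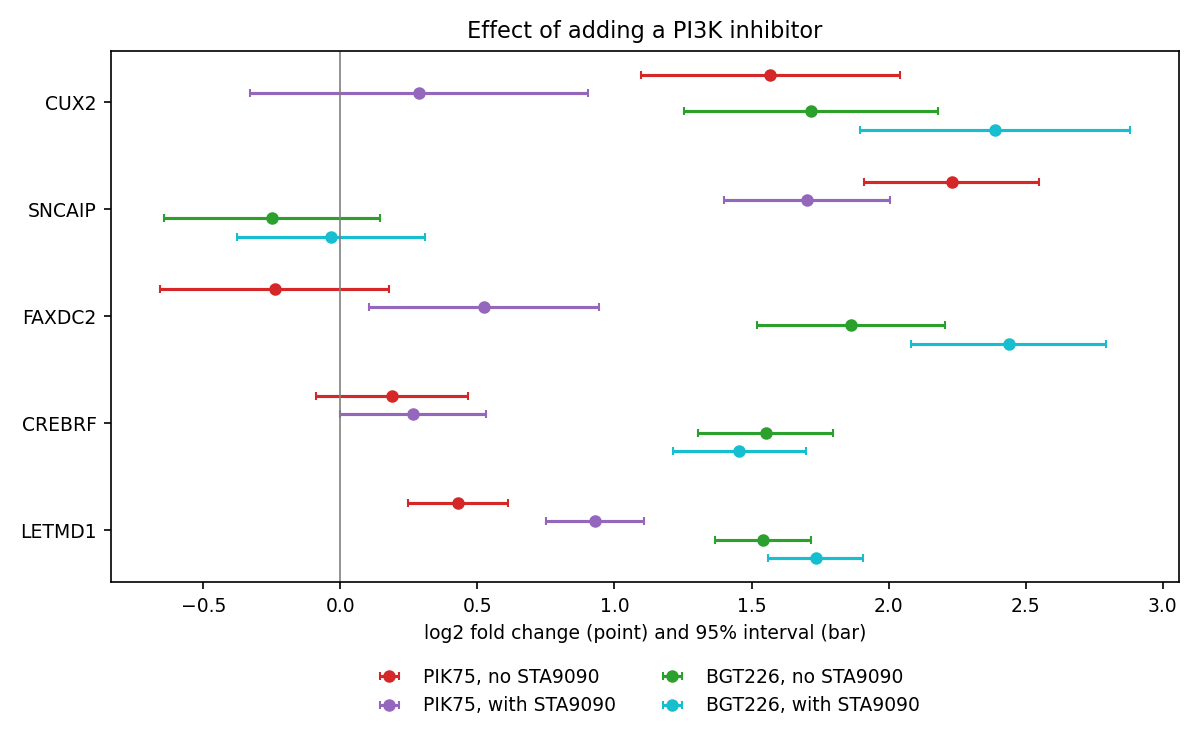
Log2 fold change (axis in log2 units) of the 5 genes for each PI3K inhibitor, against untreated cells and against STA9090 where STA9090 was present; points are fitted values and bars their 95% intervals. The PIK75 effect on CUX2 is 1.57 without STA9090 and 0.29 with it, while the BGT226 effect is 1.72 and 2.39.

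Departures of the combinations from the sum of the single log2 effects are given as a description, since they use the contrasts that chose the genes. With PIK75 they were -1.28 ± 0.378 (SE) for CUX2, -0.53 ± 0.216 for SNCAIP, 0.76 ± 0.285 for FAXDC2, 0.078 ± 0.184 for CREBRF and 0.50 ± 0.123 for LETMD1. With BGT226 they were 0.67 ± 0.339, 0.21 ± 0.25, 0.57 ± 0.246, -0.095 ± 0.168 and 0.19 ± 0.118 in the same order. The SNCAIP values moved to -0.27 and 0.46 without STA9090 replicate 1.

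The nearest measured genes on each side of the members were read to see their levels, and some of them lie far from the member. Of the 10 nearest measured protein-coding genes, 0 were higher and 1 lower with PIK75, where 8.49% and 10.2% of all genes were. With BGT226 0 were higher and 3 lower, where 12.8% and 15.7% of all genes were, so that for 10 genes these counts lie near the background. In both, 0 were higher at an unadjusted p under 0.05, and DESeq2 called 0 higher. PPP1CC, a phosphatase subunit gene 291.1 kb from CUX2, fell by 0.27 with PIK75 (adjusted p = 0.00703). LARP1, an RNA-binding regulator of translation 0.884 kb from FAXDC2, fell by 0.24 with BGT226 (adjusted p = 0.0108). ATP6V0E1, a proton pump subunit gene beside CREBRF (-0.29, adjusted p = 0.0323), and CSRNP2, 0.781 kb from LETMD1 (-0.39, adjusted p = 0.00348), also fell with BGT226. PHETA1, 10.1 kb from CUX2 on its other side, stood at 0.35 with PIK75 (adjusted p = 0.179). CNOT8, which shares its locus with FAXDC2, stood at -0.016 with BGT226 (adjusted p = 0.93).

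In STA9090+PIK75 against PIK75, 2 of the 10 neighbours were higher and 2 lower, where 11.3% and 14% of all genes were. For 10 genes these counts lie near the background. BNIP1, a vesicle fusion gene 5.16 kb from CREBRF (0.61, adjusted p = 0.0076), and SLC11A2, 19.4 kb from LETMD1 (0.26, adjusted p = 0.0269), were the higher. LARP1 (-0.20, adjusted p = 0.0341) and ATP6V0E1 (-0.32, adjusted p = 0.0248) were the lower. Against untreated cells SLC11A2 did not pass with PIK75 or with BGT226. Nor did ZNF474 and SNX2, which lie 157.8 and 310.8 kb from SNCAIP.

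**Figure D4:**
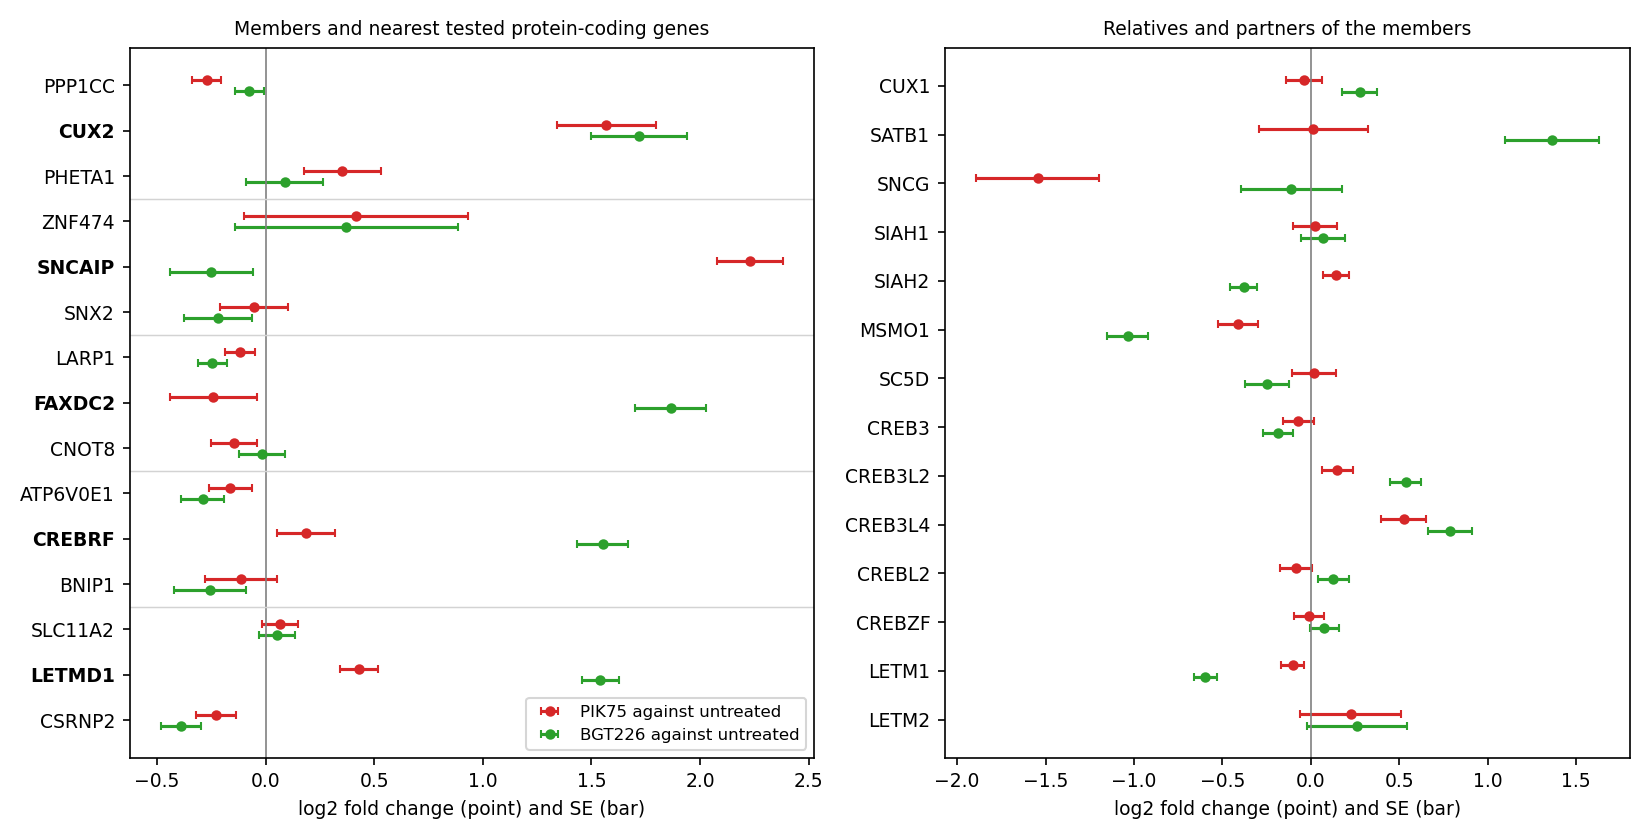
Log2 fold change ± SE against untreated cells with PIK75 (red) and BGT226 (green), for the 5 genes (bold) and their nearest measured protein-coding genes (left) and for 14 relatives and partners (right). FAXDC2 with BGT226 (1.86) stands far from the overlapping CNOT8 (-0.016). SATB1 with BGT226 (1.36) is the highest of the relatives, from a low untreated level of 0.945 CPM.

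The 14 measured relatives and partners of the members that are described here differed in direction. With BGT226 4 rose and 3 fell (12.8% and 15.7% of all genes), and with PIK75 1 rose and 2 fell (8.49% and 10.2% of all genes), the latter near the background. Among CUT domain factors, SATB1, a chromatin organiser, was low in untreated cells, at 0.945 ± 0.234 CPM (SD, n = 3). SATB1 rose by 1.36 with BGT226 (adjusted p = 0.00067), stood at 0.015 with PIK75, and was lower in STA9090+PIK75 than in STA9090+BGT226 (-1.91). CUX1, the closest relative of CUX2, rose by 0.28 with BGT226 (adjusted p = 0.0464).

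Among genes tied to synphilin-1, SNCG, a synuclein gene, fell by 1.54 with PIK75 (adjusted p = 0.00361). SIAH2, a ubiquitin ligase, fell by 0.38 with BGT226 (adjusted p = 0.000664) and was lower with STA9090+PIK75 than with PIK75 (-0.63, adjusted p = 3.75e-06). SIAH1, the other ligase of that family, passed with neither inhibitor (0.025 with PIK75 and 0.068 with BGT226).

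MSMO1, a sterol methyl oxidase of the same superfamily as FAXDC2, went the other way from it with BGT226. With PIK75 FAXDC2 stood at -0.24 ± 0.201 (SE), on the same side of 0 as MSMO1. MSMO1 fell by 1.04 with BGT226 (adjusted p = 1.51e-06) and by 0.41 with PIK75 (adjusted p = 0.0132), and SC5D stood at -0.25 with BGT226 (adjusted p = 0.154). In the family of CREB3, CREB3L4 rose by 0.79 with BGT226 (adjusted p = 7.8e-05) and by 0.53 with PIK75 (adjusted p = 0.00633), and CREB3L2 rose by 0.54 with BGT226 (adjusted p = 0.000126). CREB3 itself stood at -0.19 (adjusted p = 0.114), CREBL2 at 0.13 (adjusted p = 0.307) and CREBZF at 0.076 (adjusted p = 0.534) with BGT226. LETM1, a mitochondrial ion carrier and the namesake of the domain in LETMD1, fell by 0.60 with BGT226 (adjusted p = 1.47e-06), and LETM2 stood at 0.26 (adjusted p = 0.525).

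Of the list of FOXO and AKT target genes, 21 of 22 were measured. Like the other lists here, it was chosen with earlier results of these data known, so its counts are a description. With BGT226 12 rose and 2 fell (12.8% and 15.7% of all genes), at a median of 0.37 against 0.012 over all genes. With PIK75 6 rose and 4 fell (8.49% and 10.2% of all genes), at a median of 0.036. Between the combinations 1 was higher and 12 lower with STA9090+PIK75 than with STA9090+BGT226 (20.9% and 22.4% of all genes), at a median of -0.39 against -0.015 over all genes. FOXO1 itself stood at -1.47 in that contrast (adjusted p = 1.96e-11), TRIB2, a pseudokinase that restrains FOXO, at -1.36 (adjusted p = 5.71e-11), KLHL24, a ubiquitin ligase adaptor, at -1.16 (adjusted p = 2.66e-09) and the insulin receptor gene INSR at -0.84 (adjusted p = 2.91e-09). Against STA9090, STA9090+BGT226 raised 14 and lowered 3 (19.5% and 20.9% of all genes), with the thioredoxin inhibitor TXNIP at 1.88 (adjusted p = 3.85e-12) and FOXO3 at 1.22 (adjusted p = 7.48e-09). STA9090+PIK75 raised 6 and lowered 5 (17.7% and 19.8% of all genes). On top of PIK75, STA9090 raised 2 and lowered 8 (11.3% and 14% of all genes), FOXO1 among these (-0.53, adjusted p = 7.87e-05). On top of BGT226 it raised 0 and lowered 1 (0.988% and 1.7% of all genes), and alone 0 and 1 (1.16% and 1.68%), in both cases TRIB2 (-0.49 and -0.48). At an unadjusted p under 0.05, 1 was higher and 5 lower on top of BGT226 and 2 were higher and 2 lower alone, and DESeq2 called 0 and 3, and 0 and 1.

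Components of the PI3K, AKT and mTOR pathway, 19 of 20 measured, had 3 members higher and 5 lower with BGT226 (12.8% and 15.7% of all genes) and 3 higher and 2 lower with PIK75 (8.49% and 10.2%). For 19 genes these counts lie near the background. EIF4EBP1, the translation repressor that mTOR phosphorylates, was higher with STA9090+PIK75 than with STA9090+BGT226 (1.62, adjusted p = 4.31e-10), and so was the PI3K regulatory subunit gene PIK3R3 (0.82) and MTOR (0.45, adjusted p = 2.48e-05). The catalytic subunit gene PIK3CA was lower there (-0.67, adjusted p = 0.000273). TSC2, a brake on mTOR, fell by 0.80 with STA9090+PIK75 against PIK75 (adjusted p = 3.63e-06). PIK3R2, another regulatory subunit gene, fell by 0.64 with STA9090 alone (adjusted p = 0.0307) and was 0.83 higher with STA9090+PIK75 than with STA9090 (adjusted p = 0.000266).

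The genes whose log2 CPM followed each member most closely were sought among 9859 protein-coding genes over the 18 libraries, which share treatment groups and scaling, so that Pearson's r is a description. CUX2 was followed by CTSF, a lysosomal protease gene (r = 0.967), ATP2A3, a calcium pump gene (r = 0.951), and SGSH, a lysosomal sulfatase gene (r = 0.923). CTSF averaged 31.5 ± 0.56 CPM in untreated cells, 26 ± 2.42 with STA9090, 43.6 ± 2.82 with PIK75, 26.8 ± 1.47 with STA9090+PIK75, 50.8 ± 1.52 with BGT226 and 52 ± 3.13 with STA9090+BGT226 (SD, n = 3), the same order of high and low groups as CUX2 over a smaller range. SNCAIP was followed by STARD8 (r = 0.952), DOC2B (r = 0.939) and BPHL (r = 0.937). DOC2B, a calcium sensor of vesicle release, averaged 34.9 ± 2.32 and 34.6 ± 2.46 CPM (SD, n = 3) in the groups with PIK75 and between 15.5 and 16.8 CPM in the others.

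FAXDC2 was followed by the transcription factor gene NFATC2 (r = 0.967), SLC24A1 (r = 0.962) and NBPF11 (r = 0.964), whose reads are shared with near copies and are uncertain. CREBRF was followed by C6orf48 (r = 0.977), TXNIP (r = 0.976) and YPEL1 (r = 0.964). C6orf48, a host of small nucleolar RNAs, averaged 17.6 ± 0.865 CPM with PIK75, 20.2 ± 0.518 with STA9090+PIK75 and 73.2 ± 7.48 (SD, n = 3) with STA9090+BGT226. LETMD1 was followed by SPRY4, an inhibitor of ERK signalling (r = 0.98), CCNB1IP1 (r = 0.973) and EIF4B, a translation initiation factor gene (r = 0.97). EIF4B averaged 363 ± 29.9 CPM in untreated cells, 372 ± 18.2 with PIK75, 584 ± 26.9 with STA9090+PIK75, 773 ± 16.9 with BGT226 and 856 ± 21.1 with STA9090+BGT226 (SD, n = 3), so that like LETMD1 it stood higher with STA9090+PIK75 than with PIK75.

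Among the members, r was 0.938 for CREBRF and FAXDC2, 0.937 for CREBRF and LETMD1 and 0.881 for FAXDC2 and LETMD1. CUX2 reached 0.66 to 0.681 with these 3, and SNCAIP lay between -0.47 and -0.105 with each of the other 4. Chosen by Spearman's rho instead, the 3 closest genes shared 1 with the choice by r for SNCAIP and LETMD1 and 0 for CUX2, FAXDC2 and CREBRF.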

How the data were processed

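RNA of 18 NCI-H295R samples was sequenced as stranded, ribosome-depleted total RNA, per the labels' protocols. The authors deposited expected counts per gene and library, without normalization. Per the submitters' processing notes, hg38, STAR 2.7.0f, RSEM 1.3.1, cutadapt 1.18 and bcl2fastq 2.20 were used. For the annotation and the strand setting of counting, the sources used here give nothing, so reads shared by overlapping genes may be divided in ways the table does not show.

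Groups came from the sample titles. Counts were rounded (at most 0.000381% of a library total), filtered with filterByExpr of edgeR 4.0.16 (minimum count 10, total 15; R 4.3.3) and scaled by TMM. RPKM divides CPM by the exon length in GENCODE 29. All 18 libraries entered 1 model of group means, tested by edgeR's quasi-likelihood F-test with Benjamini-Hochberg adjustment over 15787 genes and a threshold of 0.05. Intervals are 95% intervals of the fitted log2 fold change. The script was tested on simulated data. Alternatives were RLE size factors, other filters, DESeq2 1.42.0, a fit of only the groups compared, a block for the replicate number, removal of the 50 genes with most counts, and removal of each library in turn.

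The members and lists were chosen with earlier results of these data known. For the members, PIK75, BGT226 and the combinations against untreated cells, PIK75 against BGT226, and the interactions are therefore given without p. STA9090 steps from PIK75 and from BGT226, and their difference, hold those single-inhibitor libraries too. Their p is not free of the choice. Contrasts against STA9090 and between the combinations involve the same agents on which the members were chosen. Contrasts with untreated cells share the untreated libraries, and those against STA9090 share the STA9090 libraries. The text names all members, up to 6 genes per pathway list by smallest adjusted p, the measured relatives except 3 that are not reported here, the nearest measured protein-coding gene on each side, and the 3 genes closest by Pearson's r (mean of at least 5 CPM, prior count 2).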

Additional observations from a re-analysis of the deposited data

Results flagged for a closer look

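The step that STA9090 made on top of an inhibitor differed between PIK75 and BGT226 for 2 of the 5 genes, by a test of the difference itself that was added after seeing the data. Both steps start from single-inhibitor libraries that chose the genes, so p for their difference is not free of that choice. For CUX2 the step with PIK75 minus that with BGT226 was -1.95 on the log2 scale (adjusted p = 0.000329), all 3 STA9090+PIK75 libraries lying below all 3 PIK75 libraries while the STA9090+BGT226 and BGT226 libraries overlapped. For SNCAIP it was -0.74 (adjusted p = 0.0351), with a step of -0.030 for PIK75 and 0.71 for BGT226. The SNCAIP call did not hold in 10 of 12 fits that left out 1 library.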

How the results depend on the processing

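Of 485 alternative values of the tested results, 451 kept their direction and their side of the threshold, 26 lost the call, 2 gained it and 6 changed sign, each of these 6 in a result that had not passed. The fall of CUX2 with STA9090+PIK75 against PIK75 ran from -1.97 to -1.67 with 1 library left out (adjusted p from 1.95e-05 to 0.000122).

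Signs changed with 1 library left out for LETMD1 with STA9090 against untreated (-0.034 to 0.16), SNCAIP with STA9090+PIK75 against PIK75 (-0.085 to 0.029), CUX2 with STA9090+BGT226 against BGT226 (-0.0082 to 0.26) and SNCAIP with STA9090+BGT226 against STA9090 (-0.20 to 0.21). Calls were lost for SNCAIP with STA9090+BGT226 against BGT226 (0.64 to 0.76 with 1 library left out), for FAXDC2 with STA9090+PIK75 against STA9090 (0.51 without a filter, 0.53 in DESeq2, 0.52 with the compared groups alone, 0.38 to 0.63 with 1 library left out), and for the SNCAIP difference of steps (-0.74 without a filter, -0.73 in DESeq2, -0.79 to -0.67 with 1 library left out). With the compared groups alone LETMD1 passed for STA9090+BGT226 against BGT226 (0.26) and for the difference of steps (0.31, adjusted p = 0.0466). The cause of these changes was not tested.

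Values without a test changed sign for FAXDC2 with STA9090+PIK75 against untreated without STA9090+PIK75 replicate 3 (-0.038; 0.27 without untreated replicate 1 at the other end). The departure of CREBRF from the summed effects did so with PIK75, without untreated replicate 3 (-0.0069) or STA9090+PIK75 replicate 2 (-0.033, against up to 0.22 with another library left out), and with BGT226, without untreated replicate 1 (0.027, against down to -0.19). That of LETMD1 with PIK75 moved to 0.61 without untreated replicate 1.

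Same-numbered libraries did not deviate together (r from -0.172 to 0.0985, 0 of 33 pairs over 0.1, and 4 of 36 comparisons of a library matched its own number best), so the numbers were not taken as pairs. With the replicate number as a block the FAXDC2 value for STA9090+PIK75 against STA9090 was 0.52 (adjusted p = 0.0548), and no other member's call changed. The counts of called genes stayed within 1.5 times.

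The background counts moved by over 1.5 times in 4 comparisons. For STA9090 against untreated, 183 higher and 265 lower became 0 to 369 and 4 to 400 across settings and 32 to 211 and 76 to 277 with 1 library left out. For STA9090+BGT226 against BGT226, 156 and 268 became 125 to 526 and 229 to 808, and 35 to 107 and 99 to 157. For the difference of steps, 580 and 959 became 534 to 817 and 897 to 1243, and 357 to 566 and 617 to 874. For PIK75 against untreated, 1340 and 1607 became 928 to 1385 and 1066 to 1709, and 853 to 1257 and 1222 to 1390. With 3 libraries a group and 4 of the 5 genes under 7 CPM in untreated cells, small steps have wide intervals.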
